A study of Mus musculus with 31 samples.

Results

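The genes described here are 4 aquaporins (Aqp1, Aqp3, Aqp4 and Aqp5) and 6 marker genes of the alveolar type 1 cell (Ager, Pdpn, Hopx, Cav1, Emp2 and Rtkn2). Their probes were picked by name, as those whose symbol in the scanner files, or whose current symbol, is 1 of these 10. No measured value entered this rule, but the genes were chosen with earlier results of these data known. The 10 genes had 15 probes of the 55681 on the array, and all 15 were kept for testing among 29264 features, of which 16663 carried a gene symbol. Each of the 15 probes was well above background on 29 of 29 arrays, and none was saturated.

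Aquaporins are membrane channels that let water cross a cell membrane along an osmotic gradient, and Aqp3 also passes glycerol. In the mouse lung Aqp1 is known from microvascular endothelium, Aqp3 from basal cells of the large airways, Aqp4 from the basolateral membrane of airway epithelium, and Aqp5 from the apical membrane of type 1 cells and of submucosal glands. Alveolar type 1 cells are the thin, flat cells that line most of the gas exchange surface, and acute lung injury is defined by flooding across the barrier that they form with the capillary endothelium. Ager is the receptor for advanced glycation end products, Pdpn a mucin-like membrane glycoprotein, Hopx a homeodomain-only protein without DNA binding of its own, Cav1 the scaffold of caveolae, and Emp2 a tetraspan membrane protein, while Rtkn2 is used as a marker of the type 1 cell.

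Each array measured the whole lung of 1 mouse, a 6-week-old C57BL/6 female, taken 1, 1.5, 3, 4, 18 or 24 h after an injection into the tail vein under ketamine and xylazine. Treated mice received oleic acid (200 µl, dosed at 1.2 µl per g of weight), a fatty acid that injures lung capillaries when given into a vein, and control mice received 200 µl of physiological saline. The oleic acid groups held 3 mice at each time and the saline groups 3 at 1 h and 2 at each other time. As the rule asks, oleic acid 1.5 h replicate 3 (spike-in slope 1.66) and oleic acid 3 h replicate 2 (spike-in slope 0.751) were left out, so 29 of 31 arrays were used, 16 of oleic acid and 13 of saline. No mouse without an injection was used here, so a difference between times is one after anaesthesia and an injection in both treatments. Values are log2 levels from which the array's 75th percentile was subtracted, so 0 is the level of that percentile and a difference of 1 is a factor of 2 in signal. A level belongs to its probe and is not set against the level of another probe.

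The arrays were on 4 slides that followed time. Slide 1 held the 1 h arrays and saline 1.5 h replicate 1, slide 2 the rest of 1.5 h and most of 3 h, slide 3 oleic acid 3 h replicate 3, all 4 h arrays and saline 18 h, and slide 4 oleic acid 18 h with all 24 h arrays. Treatment and slide cannot be told apart at 18 h. On 5 arrays between 72.2% and 82.4% of spots were well above background (replicate 2 of oleic acid 1 h and 18 h, replicate 1 of saline 1 h, and replicate 2 of saline 1.5 h and 18 h), against 51.2% to 66.2% on the other 24. In whole lung, fewer cells of a type and less RNA per cell cannot be told apart.

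For 5 genes a pair of probes allowed each measurement to be set against another of the same transcript, and these pairs show how far 2 measurements of a transcript moved together. Shown here are the second probes of Aqp5, Pdpn and Emp2, none of which followed its partner over the arrays (60 bases each, on the transcript's strand, from the scanner files, positions in mm9). No base is marked. The interval of the second Pdpn probe covers 818 bases of the genome, so its 60 bases are split there.
Aqp5 second probe, chr15:99424655-99424714 (+): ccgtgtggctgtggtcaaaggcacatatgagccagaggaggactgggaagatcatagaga
Pdpn second probe, chr4:142858329-142859146 (-): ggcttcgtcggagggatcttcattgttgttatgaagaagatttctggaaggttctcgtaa
Emp2 second probe, chr16:10284525-10284584 (-): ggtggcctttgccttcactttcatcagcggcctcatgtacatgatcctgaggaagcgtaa

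Across the 29 arrays, the correlation between the paired probes was 0.625 for Aqp4, 0.0896 for Aqp5, -0.00563 for Pdpn, -0.0615 for Hopx and -0.324 for Emp2. All 3765 genes with exactly 2 kept probes had a median of 0.308 (quartiles -0.00342 and 0.622). Emp2 lay above 7.52% of those genes, Hopx above 20.8%, Pdpn above 24.7%, Aqp5 above 32% and Aqp4 above 75.2%. These correlations are descriptions over arrays that share slides, treatments and times. The Hopx probes lie 104 bases apart on chromosome 5 (77516624 to 77516683 for the first, 77516460 to 77516519 for the second, both on the minus strand) and did not move together all the same. The Aqp5 probes lie 423 bases apart, the Pdpn probes 930 and the Emp2 probes 2496. In the results the first probe, the one with the higher mean, stands for the gene, and the second is given beside it.

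**Figure D1:**
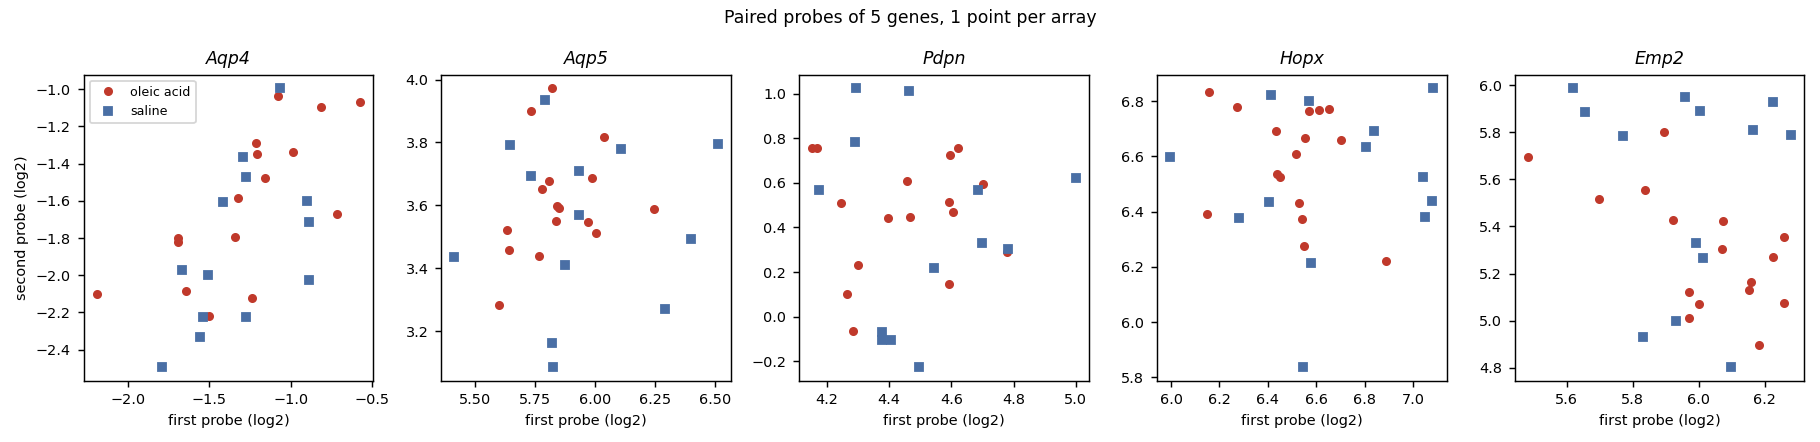
Level of the second probe (y axis, log2, relative to the array's 75th percentile) against the first probe (x axis, same scale) for the 5 genes with a pair of probes, with 1 point per array (16 oleic acid, circles; 13 saline, squares). Only the Aqp4 panel shows points along a rising line (r 0.625), and the Emp2 points run the other way (r -0.324).

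Oleic acid was first compared with saline at each time, to ask whether barrier and water channel genes changed as the injury developed. No member passed at any of the 6 times. In limma, with p-values adjusted by the Benjamini-Hochberg method over all 29264 features and a threshold of 0.05, 0 of 10 members passed at 1 h (background 0% of features), 1.5 h (0.00342%), 3 h (0%), 4 h (0.00342%), 18 h (0.0239%) and 24 h (0.0137%). The smallest adjusted p of a member at any time was 0.67, for Hopx at 4 h. At an unadjusted p under 0.05, Cav1 and Hopx were counted at 3 h, Hopx at 4 h and Hopx at 24 h, and over all features this share was 6.36% at 3 h, 7.42% at 4 h and 4.57% at 24 h.

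**Figure D2:**
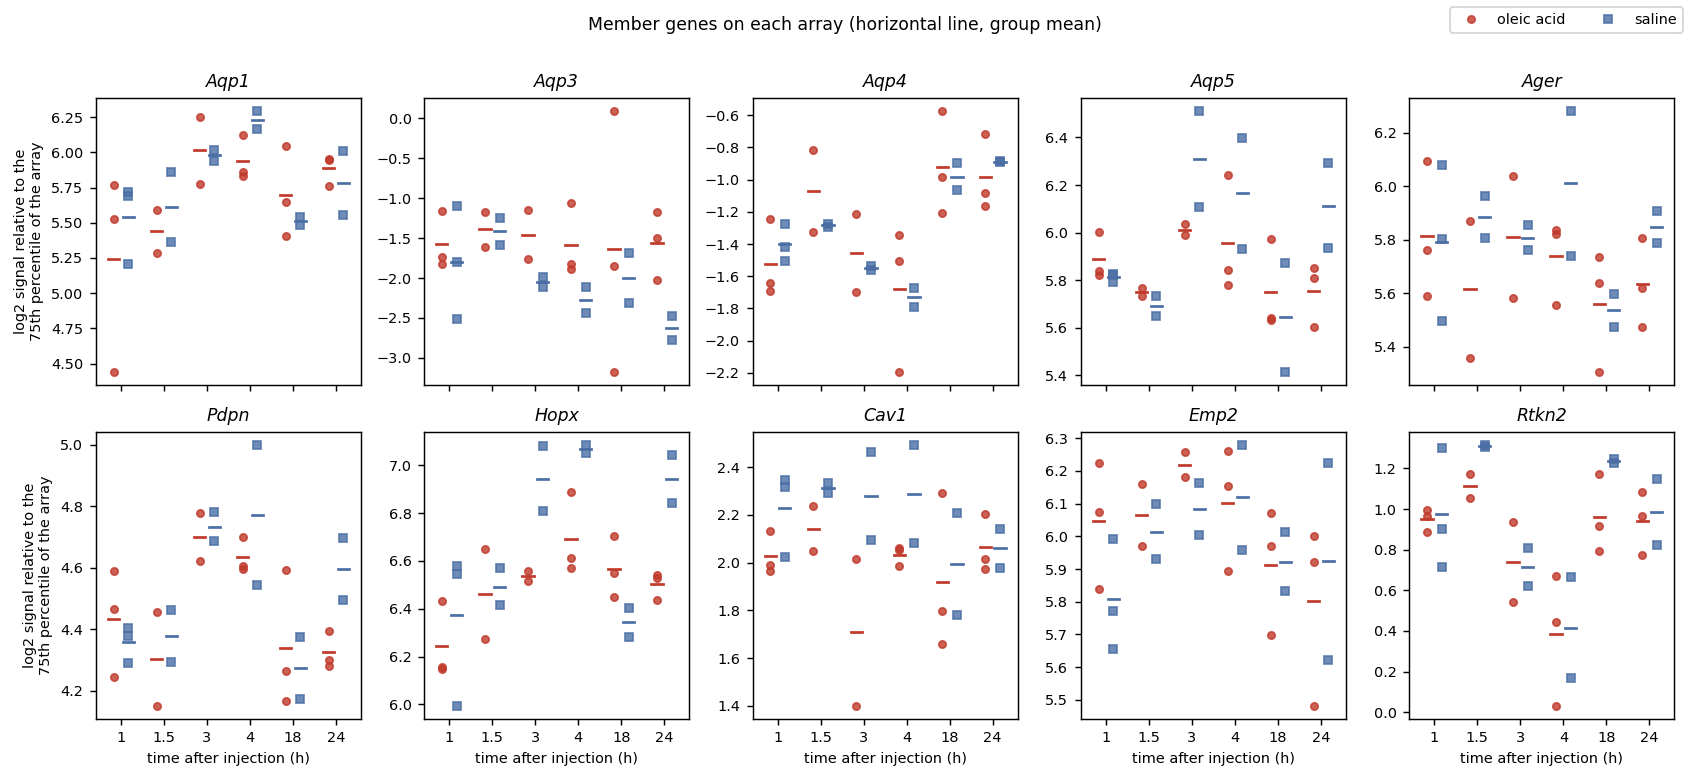
Level of each member gene (first probe, log2, relative to the array's 75th percentile) on each of 29 arrays by time after injection, oleic acid (circles) left of saline (squares), with a line at the group mean. The y axes differ between panels and do not start at 0. Aqp3 spans 3.26 over the oleic acid arrays, and Aqp4 lies higher at 18 and 24 h in both treatments.

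Groups of 2 or 3 arrays often do not overlap. Between the treatments 0 members of 10 did not overlap at 1 h, 2 at 1.5 h, 5 at 3 h, 4 at 4 h, 2 at 18 h and 4 at 24 h. Over all features these shares were 4.55% at 1 h, 26% at 1.5 h, 35.4% at 3 h, 22.5% at 4 h, 11.9% at 18 h and 21.3% at 24 h. At 3 h 2 members lay above saline (Aqp3 and Emp2; 17.4% of features) and 3 below (Aqp5, Hopx and Cav1; 18%). At 24 h 1 lay above (Aqp3; 6.11%) and 3 below (Aqp5, Hopx and Pdpn; 15.2%).

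Of the aquaporins, Aqp3 had the widest spread over arrays and the largest difference between treatments. In oleic acid lungs it was at -1.83, -1.74 and -1.16 at 1 h, against -1.80, -2.51 and -1.09 in saline lungs. At 1.5 h the values were -1.17 and -1.61 with oleic acid, against -1.58 and -1.25 with saline. At these early times the treatments overlapped. From 3 h on, oleic acid lungs lay higher at 3 of 4 times. At 3 h they were at -1.77 and -1.15, against -2.11 and -1.99 in saline lungs. At 4 h they were at -1.82, -1.07 and -1.88, against -2.44 and -2.11. At 18 h the 3 oleic acid lungs differed by more than any other group of any member, at -3.17, -1.84 and 0.09, and both saline lungs (-2.31 and -1.68) lay between them. At 24 h Aqp3 was at -2.03, -1.50 and -1.17 in oleic acid lungs, against -2.78 and -2.47 in saline lungs.

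The mean of the 6 Aqp3 differences, oleic acid minus saline, was 0.49 ± 0.25 (SE; 16 and 13 arrays; 95% interval -0.03 to 1.01), and it did not pass (limma, p 0.0646, adjusted p 0.437). The largest difference at 1 time was 1.06 ± 0.60 at 24 h (limma, adjusted p 0.86). Within groups the standard deviation of Aqp3 was 0.689, against 0.154 to 0.329 for the other 9 members. The mean over 18 and 24 h was 0.71 (-0.18 to 1.59), and without oleic acid 18 h replicate 3 it was 0.27, without oleic acid 18 h replicate 1 it was 1.09.

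Aqp3 moved from array to array with keratins of the airway basal cell. The genes most like it over 29 arrays were Krt15 (Pearson r 0.83), Bpifa1 (r 0.775), a secreted protein of the upper airway, and Krt5 (r 0.766). Over all genes with a symbol other than the members, r had a median of -0.0628 and a 95th percentile of 0.412. Without oleic acid 18 h replicate 3, r was 0.762 with Krt15 and 0.699 with Krt5. On that array Krt15 was at 1.51 and Krt5 at 0.28, and on oleic acid 18 h replicate 1, where Aqp3 was lowest, they were at -2.64 and -4.49. Of the other 3 basal cell genes on the list, Ngfr had r 0.391 with Aqp3, Trp63 0.058 and Krt14 -0.00204. The mean of the 5 basal cell genes lay between -1.98 and -0.00368 on oleic acid arrays (median -0.83) and between -1.91 and -0.279 on saline arrays (median -1.06), and 0 of 5 passed in the mean over 6 times. The part of these airway genes in the Aqp3 values was not tested.

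**Figure D3:**
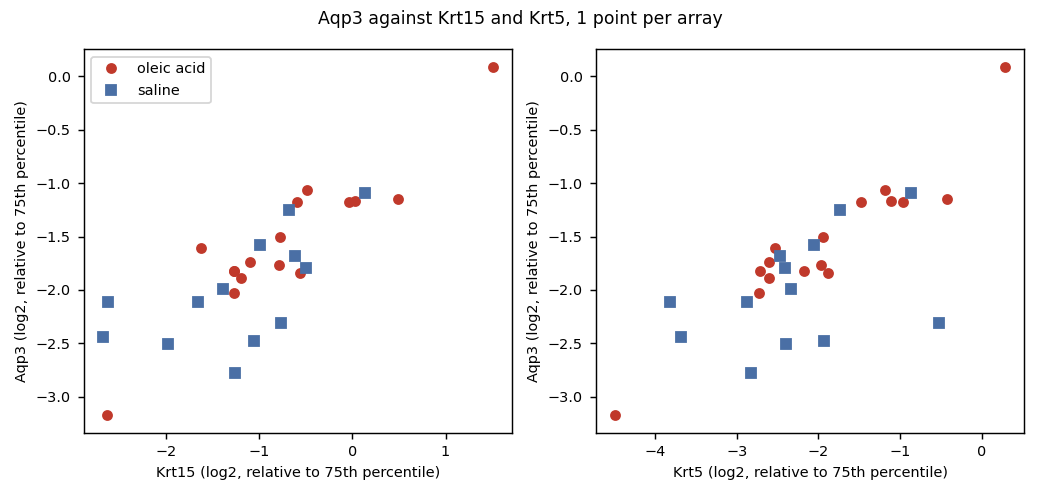
Level of Aqp3 (y axis) against Krt15 (left) and Krt5 (right) on 29 arrays, all log2 and relative to the array's 75th percentile, oleic acid as circles and saline as squares. Both panels show a rising band (r 0.83 and 0.766), with 1 oleic acid array of 18 h alone at the upper right, at 0.09 for Aqp3.

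Aqp1, the water channel of capillary endothelium, differed by -0.07 ± 0.12 over 6 times (limma, adjusted p 0.82; interval -0.33 to 0.19). Its lowest level, 4.44, was on oleic acid 1 h replicate 2, 1 of the 5 arrays with a high share of spots above background, while the other 28 arrays lay between 5.20 and 6.29. At 4 h the oleic acid lungs (5.86, 5.83 and 6.12) lay below the saline lungs (6.29 and 6.17), by -0.29 (-0.91 to 0.33). Endothelial marker genes also lay below 0. All 10 endothelial genes had differences below 0 in the mean over 1 to 4 h, with a median of -0.16, and 0 of 10 passed. Below 0 were 56.1% of all features there. Aqp1 itself was at -0.18 (-0.50 to 0.14) in that mean, and its r with the mean of the endothelial list was -0.00989.

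Aqp5, the channel of the type 1 cell's apical membrane, differed by -0.10 ± 0.08 over 6 times (-0.27 to 0.06; limma, adjusted p 0.559). Its oleic acid arrays held to a narrow range, 5.60 to 6.24, against 5.42 to 6.51 on saline arrays. The highest saline values came at 3 h (6.11 and 6.51, against 6.04 and 5.99 with oleic acid), 4 h (5.93 and 6.40, against 5.78, 6.24 and 5.84) and 24 h (6.29 and 5.93, against 5.60, 5.85 and 5.81). The saline lungs lay above without overlap at 3 and 24 h, as they did for 18% and 15.2% of all features. The second Aqp5 probe was on the other side of 0, at 0.06 (-0.12 to 0.25) over 6 times. No direction can be read for Aqp5 from these probes.

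For Aqp4 no difference between treatments was detectable, with 0.03 ± 0.10 over 6 times (-0.18 to 0.24; limma, adjusted p 0.902). Its second probe was at 0.24 (0.03 to 0.46), with an adjusted p of 0.395 in limma. Aqp4 was the only aquaporin to pass when later times were set against earlier ones, narrowly and in oleic acid lungs only. That call was lost in 9 of 14 other settings. Time and slide cannot be told apart in that comparison, as described below.

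Among the type 1 markers, Cav1 and Hopx had the lowest differences. Cav1 was at 2.13, 1.96 and 1.99 in oleic acid lungs at 1 h, against 2.32, 2.35 and 2.02 in saline lungs. At 1.5 h it was at 2.24 and 2.05, against 2.29 and 2.33, and at 3 h at 2.02 and 1.40, against 2.46 and 2.10. At 4 h it was at 2.06, 1.98 and 2.05 in oleic acid lungs, against 2.08 and 2.49. From 1.5 to 4 h every oleic acid array was below every saline array of the same time, at 4 h by a small margin (2.06 against 2.08). Groups did not overlap, in either direction, for 26% of all features at 1.5 h, 35.4% at 3 h and 22.5% at 4 h. By 18 h (1.80, 1.66 and 2.29, against 1.78 and 2.21) and 24 h (2.02, 1.97 and 2.21, against 2.14 and 1.98) the treatments overlapped.

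The mean Cav1 difference over 1 to 4 h was -0.30 ± 0.11 (10 oleic acid and 9 saline arrays; -0.52 to -0.08). It did not pass (limma, p 0.0107, adjusted p 0.658), and 7.57% of all features had an unadjusted p under 0.05 in that comparison. The 11 settings that changed its value gave -0.30 to -0.23. Over 18 and 24 h the difference was -0.04 (-0.34 to 0.27), and the change between the early and late effect, 0.26 (-0.11 to 0.64), did not pass. The largest single difference, at 3 h, was -0.57 ± 0.23 (-1.04 to -0.10; limma, adjusted p 0.709). Of the 9 other genes of caveolae, the membrane pits that Cav1 shapes, 6 lay below 0 over 1 to 4 h, with a median of -0.02 and 0 passing. Endothelial cells also carry much Cav1, and its r with the mean of the 10 endothelial genes was 0.512. Aqp5 had the same r with that mean (0.512). With the mean of the other caveolae genes the r of Cav1 was -0.18, and with that of the further type 1 genes it was 0.0929. The part of endothelial cells in the Cav1 values was not tested.

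Hopx was at 6.15, 6.16 and 6.43 in oleic acid lungs at 1 h, against 6.55, 6.58 and 6.00 in saline lungs, and at 6.27 and 6.65 at 1.5 h, against 6.41 and 6.57. At 3 h it was at 6.56 and 6.52, against 6.81 and 7.08, and at 4 h at 6.61, 6.89 and 6.57, against 7.09 and 7.05. At 18 h the order turned, with 6.70, 6.55 and 6.45 in oleic acid lungs and 6.40 and 6.28 in saline lungs. At 24 h it was again lower with oleic acid, at 6.53, 6.54 and 6.44, against 7.04 and 6.84. So Hopx lay below saline without overlap at 3, 4 and 24 h, and above it at 18 h. Groups did not overlap, in either direction, for 35.4%, 22.5%, 21.3% and 11.9% of all features at 3, 4, 24 and 18 h. The oleic acid arrays covered 6.15 to 6.89 and the saline arrays 6.00 to 7.09.

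Over 6 times Hopx differed by -0.19 ± 0.07 (-0.34 to -0.04), with an unadjusted p of 0.0147 and an adjusted p of 0.411 in limma, so it did not pass. In that comparison 11.8% of features had an unadjusted p under 0.05. The moderated F test for any effect of oleic acid gave p 0.0296 (adjusted p 1), where 3.28% of features had a p under 0.05, and the test for an effect that differed among times gave p 0.0922 (adjusted p 1). The second Hopx probe gave 0.06 (-0.12 to 0.24) over 6 times, with its sign opposite to the first. The lower values of Hopx therefore rest on 1 probe.

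Ager, a receptor found at high level on type 1 cells, differed by -0.12 ± 0.09 over 6 times (-0.31 to 0.07; limma, adjusted p 0.575). At 18 h the oleic acid lungs were at 5.73, 5.31 and 5.64 and the saline lungs at 5.60 and 5.48. At 24 h they were at 5.47, 5.81 and 5.62, against 5.79 and 5.91. The treatments overlapped at all 6 times, and the oleic acid arrays (5.31 to 6.09) covered about the range of the saline arrays (5.48 to 6.28).

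Pdpn differed by -0.06 ± 0.07 over 6 times (-0.20 to 0.08; limma, adjusted p 0.688). Its values at 24 h were 4.30, 4.28 and 4.40 in oleic acid lungs, against 4.50 and 4.70 in saline lungs, the only time without overlap. At that time 21.3% of all features did not overlap. The second Pdpn probe was at 0.08 (-0.16 to 0.32).

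Emp2 differed by 0.05 ± 0.08 over 6 times (-0.13 to 0.22; limma, adjusted p 0.825). Its second probe gave -0.28 ± 0.09 (-0.47 to -0.10), with p 0.00505 and an adjusted p of 0.395 in the limma fit to all kept probes. At 3 h that second probe was at 4.90 and 5.08 in oleic acid lungs, against 5.81 and 5.89 in saline lungs, a difference of -0.86 (-1.36 to -0.37; limma, adjusted p 0.609). The first probe was at 6.18 and 6.26 there, against 6.16 and 6.00. The probes thus lay on opposite sides of saline at 3 h.

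Rtkn2 differed by -0.09 ± 0.09 over 6 times (-0.27 to 0.09; limma, adjusted p 0.644). It was lower without overlap at 1.5 h (1.05 and 1.17 with oleic acid, 1.31 and 1.32 with saline) and at 18 h (0.92, 0.79 and 1.17, against 1.22 and 1.25). At these times 26% and 11.9% of all features did not overlap. At 4 h both treatments were low, at 0.67, 0.03 and 0.45 with oleic acid and 0.66 and 0.17 with saline.

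**Figure D4:**
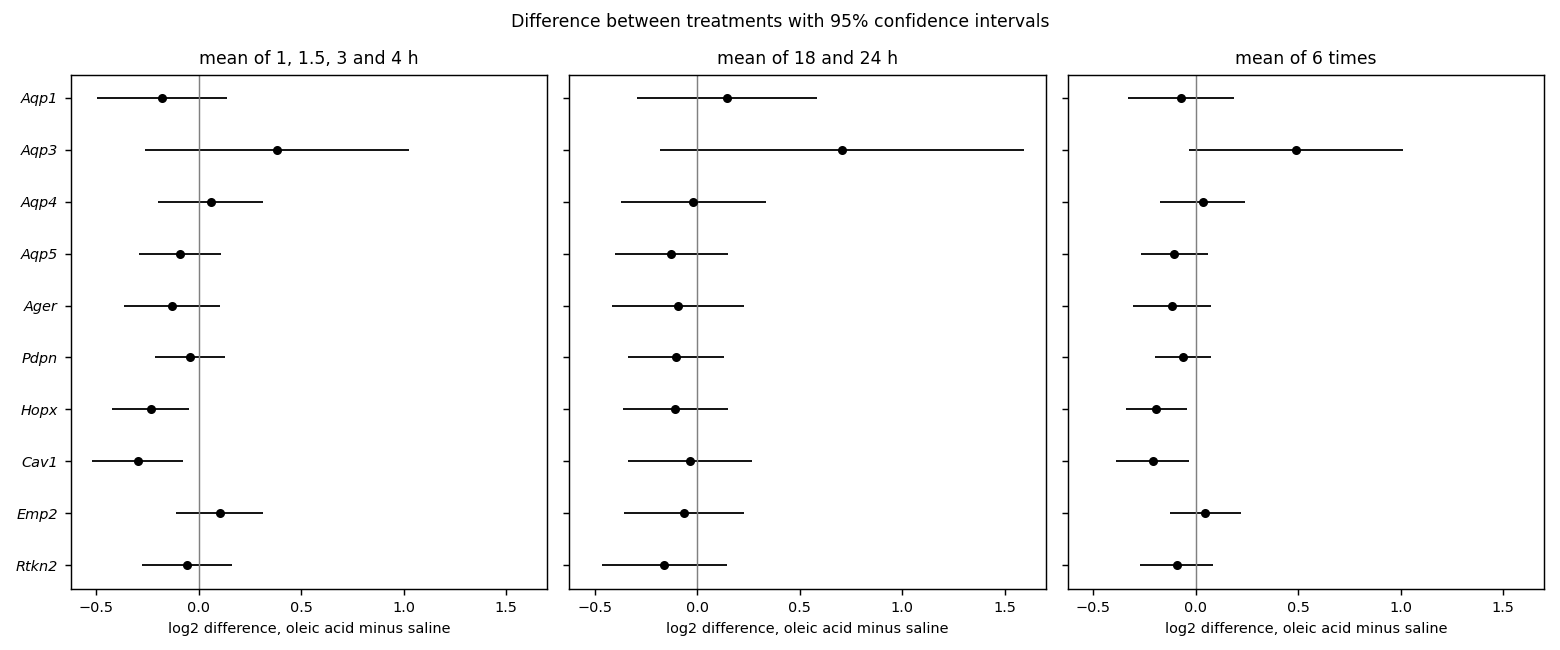
Log2 difference, oleic acid minus saline, of each member (first probe), as points with 95% intervals from limma, for the mean of 1 to 4 h (10 and 9 arrays), of 18 and 24 h (6 and 4 arrays) and of 6 times (16 and 13 arrays). The Cav1 and Hopx intervals lie below 0 in the early and 6-time means, at -0.30 and -0.24 and at -0.21 and -0.19, and the Aqp3 intervals are the widest.

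Taking the times as means, 0 of 10 members passed over 1 to 4 h (background 0.00342%), 0 of 10 over 18 and 24 h (0.0171%) and 0 of 10 over 6 times (0%). Likewise 0 of 10 passed in the change of the effect between early and late times (0%). The F tests passed 0 of 10 members for any effect (0.0171%) and 0 of 10 for an effect differing among times (0.00683%). Over 6 times 7 of 10 members lay below 0, with a median of -0.08, and 61.2% of all features lay below 0, with a median of -0.05. The members thus lay near the bulk of the features. The 95% intervals over 6 times bound the size of these differences. For the first probes of the 9 members other than Aqp3 the lowest bound was -0.39 (Cav1) and the highest 0.24 (Aqp4), and for Aqp3 the upper bound was 1.01. Second probes reached further, with a lower bound of -0.47 for Emp2 and upper bounds of 0.46 for Aqp4 and 0.32 for Pdpn.

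A wider list of type 1 genes, 21 of 22 measured, had 0 passing, 16 below 0 and a median of -0.05 over 6 times. Of 8 other aquaporins 4 were measured, with 0 passing and 3 above 0. Of 10 alveolar type 2 genes, which mark the surfactant cells that renew type 1 cells, 0 passed, 9 lay below 0 and the median was -0.16. Of 10 endothelial genes 0 passed, 8 lay below 0 and the median was -0.19. Of 6 mesothelial genes, which share Pdpn with the type 1 cell in the mouse lung, 0 passed and the median was 0.15. Red cell genes, 3 of 6 measured, lay below 0 with a median of -0.47, and 0 passed. How much of a member's difference went with these cell types was not tested.

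The second question was how the members changed with time within each treatment. Aqp4 rose at 18 and 24 h in oleic acid lungs. At 1 h it was at -1.24, -1.64 and -1.69, at 1.5 h at -1.33 and -0.81, at 3 h at -1.70 and -1.21, and at 4 h at -1.50, -1.34 and -2.19. At 18 h it reached -1.21, -0.99 and -0.57, and at 24 h -1.16, -0.71 and -1.08. The late minus early difference was 0.48 ± 0.14 (6 and 10 arrays; 0.19 to 0.76), and it passed narrowly (limma, p 0.00241, adjusted p 0.0494). Aqp4 was the only one of 10 members to pass, against 4.99% of all features in that comparison.

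Saline lungs showed a difference of like size. Aqp4 was at -1.42, -1.27 and -1.51 at 1 h, -1.28 and -1.29 at 1.5 h, -1.56 and -1.54 at 3 h and -1.79 and -1.67 at 4 h. It was at -0.90 and -1.07 at 18 h and at -0.89 and -0.89 at 24 h. All 4 late saline arrays lay above all 9 early ones, but how many of all features separate in this way was not counted. The difference was 0.56 ± 0.16 (0.22 to 0.89), which did not pass (limma, p 0.00238, adjusted p 0.0675), and 0 of 10 members passed where 2.78% of features did. The change of the oleic acid effect between early and late times was -0.08 (-0.52 to 0.36) for Aqp4, so no difference between treatments was detectable. The second Aqp4 probe gave 0.41 ± 0.14 in oleic acid lungs (limma, adjusted p 0.109) and 0.38 ± 0.16 in saline lungs (limma, adjusted p 0.267). On that second probe the saline mean was -1.30 at 18 h and -1.87 at 24 h. The early saline means were -1.94 at 1 h, -1.42 at 1.5 h, -2.28 at 3 h and -2.23 at 4 h. The 24 h mean thus lay within the range of the early means. The order of all late saline arrays above all early ones was therefore seen on the first probe only.

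The Aqp4 call was narrow, and it was lost in 9 of 14 other settings and in 24 of 29 fits with 1 array left out (limma, adjusted p 0.0323 to 0.147), with the difference between 0.39 and 0.55 in those 29 fits. The 5 fits that kept it were those without oleic acid 1 h replicate 1, 1.5 h replicate 2, 3 h replicate 3, 4 h replicate 2 or 18 h replicate 1. All late oleic acid arrays were on slide 4 and the early ones on slides 1 to 3, so time and slide cannot be told apart there. Slide 3 held saline lungs of both 4 h and 18 h. Between these, in the same fit to 29 arrays, Aqp4 differed by 0.75 ± 0.26 (18 h minus 4 h, interval 0.20 to 1.30). The difference did not pass (limma, p 0.0103, adjusted p 0.101), and this alternative was chosen after seeing the data. For Aqp4 it starts from the lowest saline mean (-1.73 at 4 h), and 77.5% of spots were well above background on saline 18 h replicate 2.

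**Figure D5:**
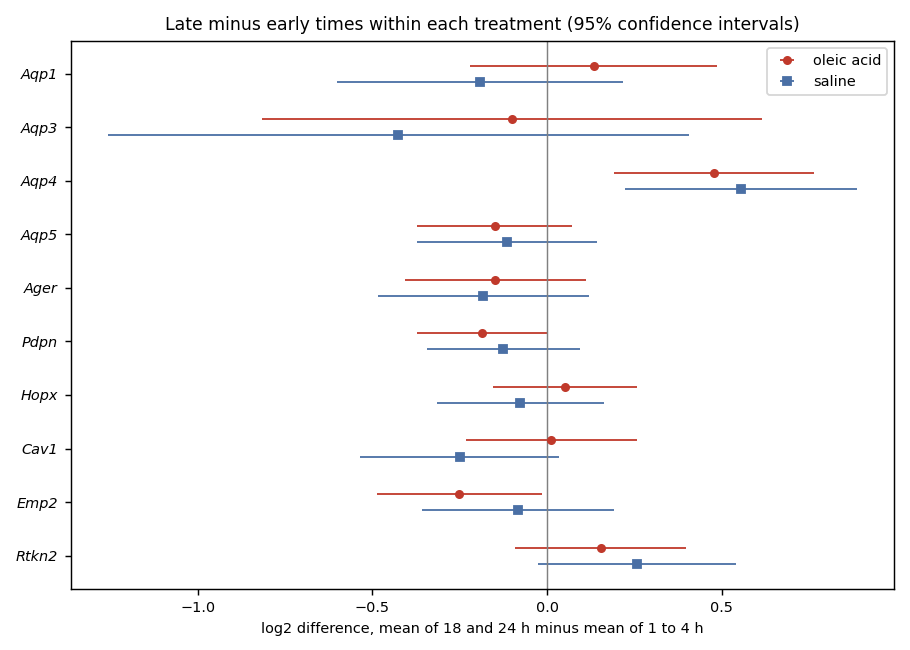
Log2 difference of each member, mean of 18 and 24 h minus mean of 1 to 4 h, as points with 95% intervals from limma, for oleic acid (circles, 6 and 10 arrays) above saline (squares, 4 and 9 arrays). Aqp4 is the only member whose interval lies above 0 in both treatments, at 0.48 and 0.56.

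No other member passed in either treatment. Pdpn was at -0.19 (-0.37 to 0.00) late minus early in oleic acid lungs and at -0.12 (-0.34 to 0.09) in saline lungs. Emp2 was at -0.25 (-0.49 to -0.01; limma, adjusted p 0.226) and -0.08 (-0.36 to 0.19). For Rtkn2 the values were 0.15 (-0.09 to 0.40) with oleic acid and 0.26 (-0.03 to 0.54) with saline. Ager was at -0.15 (-0.41 to 0.11) and -0.18 (-0.48 to 0.12). In oleic acid lungs 3 of 21 further type 1 genes passed and were lower late, against 4.99% of all features passing in either direction. These were Timp3, an inhibitor of metalloproteinases (-0.46 ± 0.09; limma, adjusted p 0.00622), Gprc5a, a membrane receptor (-0.54 ± 0.13; adjusted p 0.0218), and Lmo7, a protein of cell junctions (-0.31 ± 0.08; adjusted p 0.0334). Gprc5a also passed in saline lungs, at -0.58 ± 0.15 (limma, adjusted p 0.0479; 2.78% of features passed). Of 10 genes of caveolae, Cav1 among them, 2 passed and were lower late in oleic acid lungs (4.99% of features passed), Cavin4 at -0.76 ± 0.20 and Ehd2 at -0.32 ± 0.09. Most of that list went the other way, with 6 of 10 above 0, 4 below 0 and a median of 0.01.

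Hopx was the member whose level differed among the 6 times in saline lungs. It passed the moderated F test (limma, p 0.00116, adjusted p 0.0366), as 1 of 10 members against 4.29% of all features. Saline lungs were high at 3, 4 and 24 h (6.81 to 7.09) and low at 1, 1.5 and 18 h (6.00 to 6.58). In oleic acid lungs Hopx stayed between 6.15 and 6.89 and did not pass (limma, p 0.163, adjusted p 0.46), and 0 of 10 members passed there (background 4.4%). Whether the treatments differ in this respect is the test of an effect that differed among times, which Hopx did not pass. The call was lost in 8 of 14 other settings, and the second Hopx probe did not pass this F test (limma, adjusted p 0.357). It was also lost in 13 of 29 fits with 1 array left out (limma, adjusted p 0.0301 to 0.0772), 8 of them without a saline array (both of 1.5, 4 and 18 h, 3 h replicate 2 or 24 h replicate 1). The other 5 were without an oleic acid array (1 h replicate 1, 4 h replicate 1, 18 h replicate 2, or 24 h replicate 1 or 3). Between the saline groups on slide 3, in the fit to 29 arrays, Hopx was at 6.40 and 6.28 at 18 h, against 7.09 and 7.05 at 4 h. The difference of -0.73 ± 0.19 passed (limma, adjusted p 0.0323; 5.4% of features passed), and Rtkn2 passed there at 0.82 ± 0.23 (limma, adjusted p 0.0395). This comparison was chosen after seeing the data, and for Hopx it sets the lowest saline mean (6.34) against the highest (7.07). On saline 18 h replicate 2, 77.5% of spots were well above background. The second Hopx probe had levels of 6.44 and 6.38 at 18 h, against 6.85 and 6.38 at 4 h.

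The 10 members did not move as 1 group over the arrays. Of their 45 pairs, 23 had a correlation above 0, with a median of 0.0191 and a range of -0.641 to 0.692 over 29 arrays. The highest were Aqp5 with Hopx (0.692), Aqp1 with Hopx (0.688), Pdpn with Hopx (0.667) and Aqp1 with Pdpn (0.659), and the lowest was Aqp5 with Rtkn2 (-0.641). These arrays share slides and a range of quality. With the share of spots above background, r was -0.439 for Aqp5, -0.418 for Aqp1, -0.415 for Pdpn and -0.364 for Hopx, the lowest of the members. The highest was 0.243, for Rtkn2. The part of array quality in these pairs was not tested. Over all genes with a symbol other than the members, the 95th percentile of r was 0.714 for Aqp5, 0.681 for Hopx, 0.667 for Aqp1 and 0.661 for Pdpn. Aqp1 with Hopx thus lay above both of its percentiles. Second probes grouped otherwise. The second probe of Aqp5 went with the second probes of Pdpn (0.674) and Hopx (0.666), while its own partner was at 0.0896.

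The genes most like each member over 29 arrays differed from member to member. For Ager they were Krt7, a keratin of simple epithelia (r 0.866), Tbc1d17 (0.832) and Marchf2 (0.826). Cav1 was nearest to Ncstn, a subunit of gamma-secretase (0.733), Itgb1, the beta 1 integrin (0.729), and Eif2s3x (0.716), against a 95th percentile of 0.258. Aqp4 was nearest to Sdf2l1 (0.80) and 4833428L15Rik (0.795), and within groups, after the group means were taken out, these were 0.431 and 0.473. For Aqp1 the nearest was C9orf72 (0.90), for Aqp5 Rassf1 (0.934), for Pdpn Tbc1d22a (0.924), for Hopx Zkscan6 (0.921), for Emp2 Tent4a (0.86) and for Rtkn2 Snap47 (0.867). None of these genes was among the 10 members, and Krt7 was on the further list of type 1 genes.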

How the data were processed

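Total RNA (200 ng) from each lung was labelled with Cy3 and hybridised to a 1-colour Agilent array, per the labels' protocols. Per the submitters' processing notes, the authors used Agilent Feature Extraction 10.5.1.1 to read the images. The deposited scanner files hold an intensity for each spot, which the software had corrected for background and spatial trend, per the file headers, and which was not normalized between arrays. The authors' deposited table holds log2 values whose background treatment is not given in the sources used here. It served as an alternative.

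In R 4.3.3 with limma 3.58.1, log2 of the processed signal minus the array's 75th percentile over non-control spots was taken, outlier-flagged spots were left out, and spots of a probe were averaged. Kept were probes that passed the scanner's background flag on all arrays of 1 or more groups, with the kept probe of highest mean for each gene. The 12 group means were fitted to 29 arrays with lmFit and eBayes, for 12 contrasts and 4 F tests, with Benjamini-Hochberg adjustment over 29264 features and a threshold of 0.05. Errors are standard errors unless named, and the number of arrays limits the precision. Each array is a separate mouse, per the labels.

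Members and lists were chosen with earlier results of these data known. Genes named as most like a member come from the 3 of highest Pearson r over 29 arrays for each. All 3 are named for Aqp3, Ager and Cav1, 2 for Aqp4 (1 is not reported here) and the first for the others. From the further type 1 genes and the genes of caveolae, those that passed late against early are named. Other list genes that passed are not named. Likeness, probe pairs and member pairs are descriptions without a test. The 16 alternative settings cover the arrays, background, normalization, filter, probe summary, slide, pairing and weights, and 2 alternatives were added after seeing the data (the other probe, and saline 18 h minus saline 4 h, groups that share slide 3, taken from the same fit). The fit was also run on simulated data with independent noise, no slide differences and changes larger than most member differences here. That run does not show whether differences as small as the members' would be found. Symbols came through the RefSeq accession for 26582 probes and from the file or a synonym for 3094, and 26005 had none. Sequences and mm9 positions are those of the scanner files.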

Additional observations from a re-analysis of the deposited data

Results flagged for a closer look

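The second probe of Emp2, which stands for no gene in the comparisons, passed the test for any difference among the 6 saline times (limma, moderated F test, adjusted p 0.0278), while the first probe did not (adjusted p 0.814). It was marked because it is a signal in a probe outside the main measurement. In saline lungs the second probe was at 5.89, 5.78 and 5.33 at 1 h, 5.00 and 4.81 at 1.5 h, 5.81 and 5.89 at 3 h, 5.79 and 5.95 at 4 h, 5.26 and 4.93 at 18 h and 5.99 and 5.93 at 24 h. The lowest values were those of 1.5 and 18 h. In oleic acid lungs it lay between 4.90 and 5.80. The cause of the disagreement between the Emp2 probes was not tested.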

How the results depend on the processing

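In the 10 comparisons of oleic acid with saline and the 2 F tests on its effect, 0 members passed in any setting, except 1 (Hopx) at 1 h with array weights. Members passing among saline times (1 as reported) were 0 with 31 arrays, quantile normalization, median centring, the deposited table, no filter, the share above background as covariate and without the arrays over 70%, 2 with the mean of the kept probes and 3 with array weights. Members passing late against early in oleic acid lungs (1 as reported) were 0 with 31 arrays, normexp, quantile normalization, median centring, the deposited table, no filter, outlier spots kept, without the arrays over 70% and with the other probe. Among oleic acid times (0 as reported) they were 1 with the mean of the kept probes or slide as a random term and 4 with array weights, and late against early in saline lungs (0 as reported) 1 with slide as a random term. Array weights also passed many of all 29264 features, 3511 at 1 h, 4552 among saline times and 11449 among oleic acid times. The member counts under array weights are therefore not particular to the members. With each array left out in turn, late against early in oleic acid lungs, late against early in saline lungs and the saline times each ranged from 0 to 1. Among the calls that were recomputed, only that of Aqp4 late against early in oleic acid lungs had a sign. That sign held wherever it could be fitted, although the call was lost in 9 of 14 other settings. Of 5320 recomputed member values 274 had the opposite sign. The causes were not tested.

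Replicate numbers were not taken as pairs in the main fit. Deviations of same-numbered arrays had correlations from -0.767 to 0.632, and both at 18 h were above 0 (0.524 and 0.632). In a group of 2 arrays the deviations mirror each other, so these values cannot decide whether the numbers pair the samples. With the replicate block 0 members passed in the comparisons of treatments it could fit. Of all features, between 69 and 3668 passed late against early in oleic acid lungs (1460 as reported), 39 to 1136 in saline lungs (813), 23 to 4552 among saline times (1255), 63 to 11449 among oleic acid times (1289) and 0 to 3511 at 1 h (0), with array weights giving the most except in saline lungs late against early. In the other comparisons of treatments the most were 132 at 18 h (7 as reported), 80 over 18 and 24 h (5), 27 in the change of the effect (0) and 22 at 1.5 h (1), without the arrays over 70%, and 151 in the F test of any effect (5) with array weights. Slide as a fixed term and the replicate block could not be fitted for every comparison. Median centring moved the median of all features from 0.02 to -0.25 late against early in saline lungs, where Aqp4 was then at 0.28.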
